A study of Mus musculus with 4 samples.

Results

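The fetal program of Lin28b, Hmga2, Igf2bp1, Igf2bp2 and Igf2bp3 was examined in RNA sequencing of fetal liver LSK cells with and without the DNA translocase PICH. The members are the 5 rows of the deposited table that carry these names, of 39186 genes listed in all, and all 5 were among the 32428 genes tested. There were 2 Pich-KO and 2 Pich-WT samples, all of the C57BL/6 strain, and the study took fetal livers for its sorts at E14.5 (embryonic age). LSK cells are the Lin−Sca-1+c-Kit+ fraction in which hematopoietic stem cells and early progenitors are enriched, and the lineage antibodies of the sort were against CD4, CD8, Gr-1, B220 and Ter119. The Pich-KO line lacks 10 bases of exon 2 of the X-linked gene Pich, listed as Ercc6l, in every tissue, so its liver cells are mutant as well as its blood cells. Whether a sample was one embryo or a pool is not given in the sources used here, and p-values measure only the spread between these samples.

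LIN28B is an RNA-binding protein that binds the precursors of the let-7 microRNAs and keeps them from maturing. Mature let-7 in turn pairs with sites in the 3′UTRs of the Lin28b, Hmga2 and Igf2bp mRNAs and lowers their level and translation, so that LIN28B and let-7 hold each other in check. HMGA2 is a chromatin protein that binds the minor groove of AT-rich DNA, and IGF2BP1, IGF2BP2 and IGF2BP3 are cytoplasmic RNA-binding proteins that stabilize and localize mRNAs such as Myc, Actb and Igf2. The genes are known as a group from fetal stem cells, including those of the fetal liver, where they are high before birth and fall afterwards, while let-7 rises.

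The let-7 family is shown first because its shared seed defines the sites in the members. RefSeq lists 9 mature mouse sequences of the family in the table used, and all 9 hold the same seed, bases 2 to 8 from the 5′ end, which is in capitals in the 4 printed here.

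let-7a: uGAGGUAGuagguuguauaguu
let-7b: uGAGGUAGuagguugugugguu
let-7g: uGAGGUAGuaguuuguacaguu
miR-98: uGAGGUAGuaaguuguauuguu

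A match to this seed reads CTACCTC in the sense strand of an mRNA, written as DNA. In the longest annotated 3′UTR of each gene in GENCODE M21, such a match was present in 9.61% of 19085 tested genes, and only 0.0629% held 4 or more. Lin28b, Hmga2 and Igf2bp1 each held 4, while Igf2bp2 and Igf2bp3 held 1 each. Long 3′UTRs hold more matches by their length, and among the 1083 genes with a 3′UTR at least as long as the 4445 bases of Lin28b, 0.554% had 4 or more. The corresponding shares were 0.292% for Hmga2 with 3014 bases and 0.809% for Igf2bp1 with 6337 bases, against 19.1% with 1 or more for Igf2bp2 and 20.6% for Igf2bp3. The first match of each member that is followed by an A is given with the 14 bases before it and the base after it, 5′ to 3′ on the mRNA strand, with the seed match in capitals. All 5 genes lie on the minus strand of GRCm38.

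Lin28b, chr10:45381023-45381029: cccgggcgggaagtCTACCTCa
Hmga2, chr10:120364225-120364231: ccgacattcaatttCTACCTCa
Igf2bp1, chr11:95961779-95961785: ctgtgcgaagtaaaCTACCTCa
Igf2bp2, chr16:22059474-22059480: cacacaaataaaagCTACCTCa
Igf2bp3, chr6:49086788-49086794: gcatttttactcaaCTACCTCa

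An A at this place is the context in which seed matches are known to act most strongly. A match is a stretch of letters and not a site shown to be used in these cells. Mature microRNAs are not captured by this kind of library, and the 4 let-7 family genes listed in the table had at most 7 reads in any sample, so that the level of let-7 was not measured.

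Before the members, the libraries themselves are described. They held 14703215 to 20933919 reads on genes. Ercc6l was at 1142 and 1232 normalized counts in the Pich-KO samples against 772 and 661 in the Pich-WT samples. The targeted gene was thus called higher in Pich-KO, with a log2 fold change of 0.73 ± 0.14 (SE, adjusted p = 0.0089 in limma). A deletion of a few bases leaves most of an mRNA countable, so these values do not check the labels. Every direction below is that of the samples as labelled. Pich-WT sample 2 had 0 reads on 4 Y-linked genes and 699 reads on Xist, whereas the other samples had 1607 to 2853 reads on the Y-linked genes.
The stem and progenitor markers of the sort were present in both groups. Kit, the receptor of the sort, was at 4447 and 2772 normalized counts in Pich-KO against 2328 and 2513 in Pich-WT. Ly6a, which encodes Sca-1, was 1.74 higher in Pich-KO on the log2 scale. Of the 12 genes of the stem and progenitor list, Ly6a was the 1 called higher in limma. The 4 called lower in Pich-KO were Slamf1, Procr, Mecom and Hlf. Beside this list and the marker lists below, limma called 7.58% of all tested genes higher and 9.6% lower. Among genes with an annotated 3′UTR and a mean of at least 100 normalized counts these shares were 20.8% and 23.1%.
Markers of other cells differed widely between the groups. Macrophage markers were lower in Pich-KO for 10 of 10 genes, with summed values of 7972 to 9134 against 57333 to 58606 normalized counts. Endothelial markers were lower for 6 of 6 genes, with sums of 654 to 1362 against 20760 to 31688, and erythroid markers for 9 of 9, with sums of 31502 to 33332 against 138148 to 196339. Markers of neutrophil and monocyte progenitors went the other way, with 3 of 5 genes higher in Pich-KO and sums of 63335 to 113804 against 12953 to 15686. Fewer cells of a type and less RNA per cell cannot be told apart in bulk samples.

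Lin28b was the member that rose in Pich-KO LSK cells. Its gene (ENSMUSG00000063804, chr10:45376620-45486395) was at 1096 and 1247 normalized counts in the Pich-KO samples against 197 and 176 in the Pich-WT samples, where a normalized count is the number of reads on the gene divided by the size factor of the sample. Both Pich-KO samples were far above both Pich-WT samples, and the samples of a group lay close to each other. The values rested on 1005 and 1097 reads in Pich-KO against 252 and 176 in Pich-WT. The group means were 1172 ± 107 and 186 ± 14.8 (SD, n = 2 each). The log2 fold change was 2.64 ± 0.16 (SE), with a 95% interval of 2.27 to 3.02 and an adjusted p of 6.2e-05 in limma, which is a 6.25-fold difference. In the order of all tested genes by log2 fold change Lin28b stood at place 141. The call was lost when the prior variance did not follow the mean (adjusted p = 0.085), a setting in which limma called 0 genes in either direction and 3343 higher and 4034 lower at an unadjusted p under 0.05. With 1 sample left out the log2 fold change of Lin28b stayed between 2.55 and 2.74, and its adjusted p was 0.039 without Pich-KO sample 1, 0.064 without Pich-KO sample 2, 0.233 without Pich-WT sample 1 and 0.221 without Pich-WT sample 2.

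**Figure D1:**
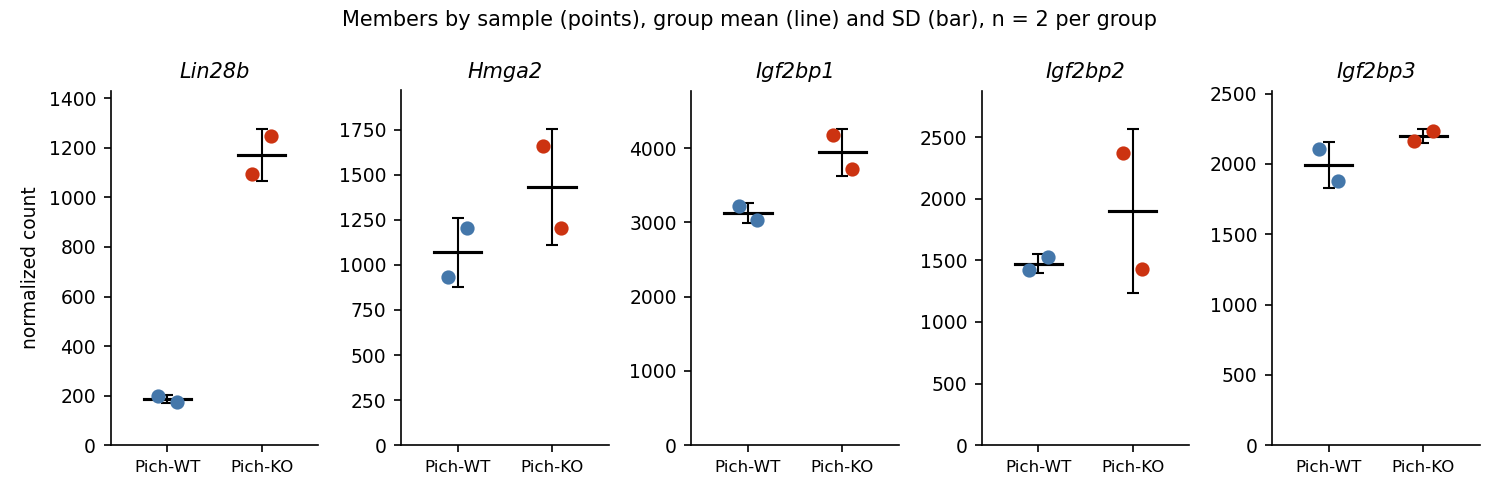
Normalized counts (y axis, from 0, own scale per gene) of the 5 members in 2 Pich-WT (blue) and 2 Pich-KO (red) samples; each point is a sample, the line is the group mean and the bar the SD. The Lin28b points of Pich-KO lie at 1096 and 1247, above 197 and 176 in Pich-WT, whereas the Hmga2 and Igf2bp2 points of the groups overlap.

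The other 4 members did not pass the threshold. Hmga2 (ENSMUSG00000056758, chr10:120361275-120476469) was at 1661 and 1203 normalized counts in Pich-KO against 935 and 1204 in Pich-WT. The groups overlapped, since Pich-KO sample 2 and Pich-WT sample 2 were at nearly the same level. The means were 1432 ± 324 and 1069 ± 190 (SD, n = 2 each), and the log2 fold change was 0.41 ± 0.19 with a 95% interval of −0.023 to 0.85 and an adjusted p of 0.199 in limma. The interval lay wholly below that of Lin28b. The value of Hmga2 rested on single libraries, since it was 0.18 without Pich-KO sample 1, 0.65 without Pich-KO sample 2 and 0.23 without Pich-WT sample 1, and passed in none of these.

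Igf2bp1 (ENSMUSG00000013415, chr11:95957163-96005940) was the most abundant member in reads, with 4172 and 3719 normalized counts in Pich-KO against 3224 and 3027 in Pich-WT. Both Pich-KO samples were above both Pich-WT samples by a small margin. The means were 3946 ± 320 and 3125 ± 139 (SD, n = 2 each), and the log2 fold change of 0.33 ± 0.10 had a 95% interval of 0.10 to 0.57 and an adjusted p of 0.060 in limma. The side of the threshold on which Igf2bp1 fell depended on the fit: its adjusted p was 0.025 in edgeR with TMM scaling on the recovered reads, where 18.6% of the 16608 genes tested were called higher, and 0.032 in limma on genes with at least 10 reads in every sample. It was 0.074 in DESeq2, and 0.080 in limma with a pseudocount of 0.1.

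Igf2bp2 (ENSMUSG00000033581, chr16:22059009-22163299) was at 2376 and 1432 normalized counts in Pich-KO against 1420 and 1527 in Pich-WT. Only Pich-KO sample 1 was high, and the other sample of its group lay within the range of Pich-WT. The log2 fold change was 0.32 ± 0.21 (95% interval −0.17 to 0.82, adjusted p = 0.386 in limma). It was −0.040 without Pich-KO sample 1 and 0.69 without Pich-KO sample 2, so that its direction rested on 1 library.

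Igf2bp3 (ENSMUSG00000029814, chr6:49085223-49214957) was at 2161 and 2236 normalized counts in Pich-KO against 2109 and 1875 in Pich-WT. The groups did not overlap but nearly touched. The log2 fold change was 0.14 ± 0.11 (95% interval −0.11 to 0.40, adjusted p = 0.462 in limma), which was the smallest of the 5. It was 0.059 without Pich-WT sample 2 and 0.23 without Pich-WT sample 1, and passed in neither. A fold change of 1.32 lies at the upper end of this interval.

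Of the 5 members, 1 was called higher and 0 lower in limma, at a background of 7.58% of all tested genes called higher and 9.6% called lower. Among the 10084 genes with an annotated 3′UTR and a mean of at least 100, the class of all 5 members, the shares were 20.8% and 23.1%. At an unadjusted p under 0.05 in limma 2 members were higher and 0 lower, where 4427 of the 32428 genes tested were higher and 4867 lower. Neither edgeR nor DESeq2 called a member lower. The group mean was above that of Pich-WT for all 5, and the groups did not overlap for 3 of them, where 28.9% of all tested genes did not overlap in this direction. The median log2 fold change of the members was 0.33, against 0.025 over all tested genes.

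Compared per length, the members were not equally abundant. TPM values, transcript abundances that are corrected for gene length and library depth, computed from the recovered reads and the gene lengths of the table, put Igf2bp1 first in every sample, with 76.3 and 64.9 in Pich-KO against 58.8 and 57.9 in Pich-WT. Igf2bp3 was at 46.9 and 46.3 TPM in Pich-KO against 45.6 and 42.6 in Pich-WT. Igf2bp2 followed with 56.9 and 32.7 against 33.9 and 38.2 TPM, and Hmga2 with 43.5 and 30.01 against 24.4 and 32.9 TPM. In Pich-KO the values of Igf2bp2 overlapped those of both Igf2bp3 and Hmga2, so that these neighbours in the order were not separated by more than their spread, while in Pich-WT none of the 5 genes overlapped another in these 2 samples. Lin28b was the lowest in every sample, at 21.4 and 23.2 TPM in Pich-KO against 3.83 and 3.60 in Pich-WT. Its share of the summed TPM of the 5 genes was 8.74% and 11.8% in Pich-KO against 2.30% and 2.05% in Pich-WT. Lin28b thus remained the scarcest of the 5 mRNAs in Pich-KO, at a level below that of Hmga2 in the same samples.

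The change of Lin28b against the other members was examined within each sample, where the scaling of a library cancels. The difference of log2(value + 1) between Lin28b and Igf2bp3 was −0.98 and −0.84 in Pich-KO against −3.41 and −3.41 in Pich-WT. It was thus 2.50 ± 0.068 (SE) higher in Pich-KO, and the groups did not overlap. Against Hmga2, Igf2bp1 and Igf2bp2 the difference was higher by 2.23 ± 0.42, 2.31 ± 0.18 and 2.32 ± 0.48. The 6 pairs without Lin28b changed by at most 0.27, and only that of Igf2bp1 and Igf2bp3 did not overlap between groups. With 2 samples against 2, the exact two-sided permutation test cannot give a p below 0.333, which was the value for each pair with Lin28b, and over the 10 pairs the adjusted p was 0.667 to 1.

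**Figure D2:**
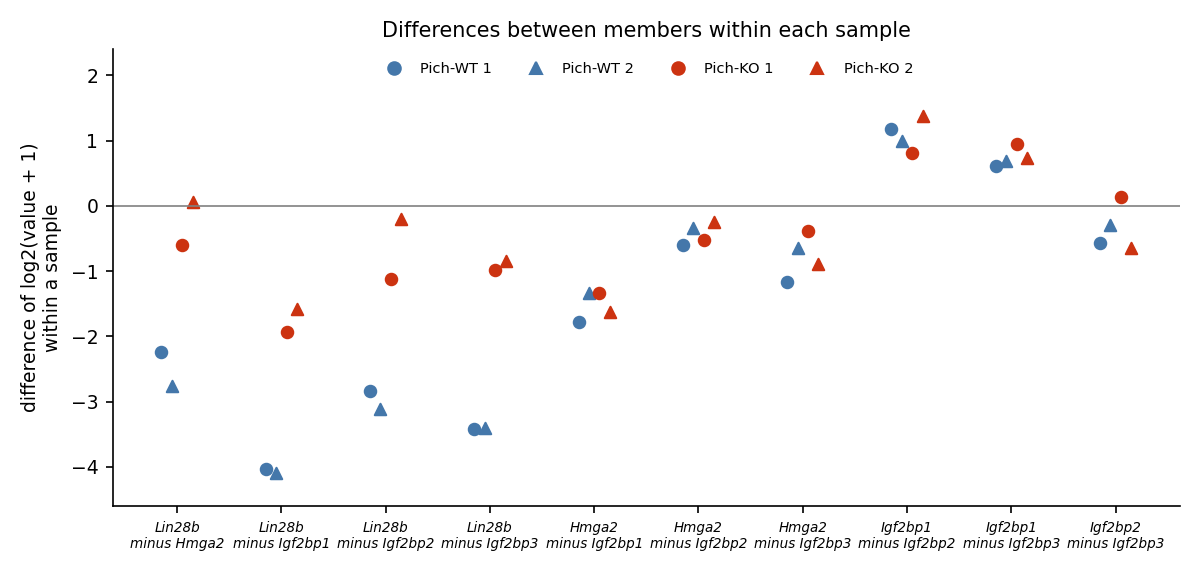
Difference of log2(value + 1) between 2 members within a sample (y axis) for the 10 pairs (x axis) in Pich-WT (blue) and Pich-KO (red), with a circle for sample 1 and a triangle for sample 2. In the 4 pairs with Lin28b the Pich-KO points lie 2.23 to 2.50 above the Pich-WT points on average, and in the other pairs by at most 0.27.

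The reads of the members could be shared with few other genes. No other gene of the table overlapped Lin28b, and its nearest protein-coding neighbour, Bves at 4141 bases, was at 5.45 and 4.55 normalized counts in Pich-KO against 3.91 and 5 in Pich-WT. Hmga2 overlapped 2 antisense genes and Mir763, of which the highest, 1700006J14Rik, was at 58.9 and 68.2 normalized counts in Pich-KO against 81.3 and 94.0 in Pich-WT. Igf2bp1 overlapped the antisense gene Gm29202, with at most 8.73 normalized counts in any sample. Igf2bp3 overlapped the protein-coding gene Malsu1, at 428 and 454 normalized counts in Pich-KO against 381 and 338 in Pich-WT. Whether the counting used strand is not given in the sources used here.

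For each member, the 3 genes with the closest profile over the 4 samples were sought among 10543 genes with a mean of at least 100, by the root mean square difference of centred log2 values. For Lin28b they included Plac8 at 0.062 and Gria3 at 0.091. Plac8 was at 18095 and 22613 normalized counts in Pich-KO against 3636 and 3048 in Pich-WT. Both genes rose, with log2 fold changes of 2.60 and 2.74. For Igf2bp3 the closest were Bambi, E430024I08Rik and Gins3, for Igf2bp1 Trub1, Nlk and Pdk1, for Hmga2 Fam69b, Irgm2 and Trib3, and for Igf2bp2 Foxo3, Fzd9 and Zfp184. None of the genes closest to these 4 members passed the threshold. These genes were picked for a profile like that of the member, so fold changes near that of the member follow from the choice. With 4 samples such a likeness is a description of these libraries.

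The genes that act on let-7 between transcription and loading were compared next. Of 19 tested genes of let-7 processing, 6 rose, 4 fell and 9 did not pass in limma, with a median log2 fold change of 0.25. Beside this list and those below, limma called 7.58% of all tested genes higher and 9.6% lower. Among genes with an annotated 3′UTR and a mean of at least 100 these shares were 20.8% and 23.1%. Lin28a, the paralog of Lin28b, was low, at 16.4 and 36.4 normalized counts in Pich-KO against 7.03 and 11 in Pich-WT, with a log2 fold change of 1.38 ± 0.56 that did not pass (adjusted p = 0.148). Tut4 encodes a terminal uridylyltransferase that acts on let-7 precursors. It was at 661 and 530 normalized counts in Pich-KO against 304 and 307 in Pich-WT, a rise of 0.95 ± 0.17 on the log2 scale (adjusted p = 0.0073 in limma). Its relative Tut7 was at 1876 and 1746 against 2308 and 1999 normalized counts and did not pass, and neither did Dis3l2, the nuclease that degrades the uridylated precursor, with a log2 fold change of −0.035.

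The steps of general microRNA maturation moved in both directions. Xpo5, the export receptor of precursors, showed the largest rise past the threshold, from 1363 and 1374 normalized counts in Pich-WT to 3037 and 3074 in Pich-KO (log2 fold change 1.16 ± 0.10, adjusted p = 2.5e-04 in limma). Dgcr8, the partner of Drosha in the nucleus, rose by 0.66, whereas Drosha itself did not pass. Dicer1, which cuts the precursor, was at 488 and 454 normalized counts in Pich-KO against 797 and 760 in Pich-WT, and fell by 0.73 on the log2 scale (adjusted p = 0.010). Its cofactor gene Prkra fell by 0.94, and Ago4, an Argonaute gene of low level, fell by 1.90. Among proteins that bind let-7 precursors directly, Khsrp, a promoter of let-7 maturation, fell by 1.52, while Hnrnpa1, an antagonist of it, rose by 0.76 and the RNA helicase gene Ddx17 by 1.05.

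Known targets of let-7 other than the members showed no common direction. Of 24 genes, 6 rose, 5 fell and 13 did not pass in limma, with a median log2 fold change of 0.12. Arid3a, a transcription factor gene of fetal B lymphopoiesis, was at 2048 and 2093 normalized counts in Pich-KO against 991 and 1009 in Pich-WT, a rise of 1.05 ± 0.11 (adjusted p = 5.8e-04). Myc rose by 1.17 ± 0.11, with 8315 and 9910 normalized counts against 4226 and 3854, and Cdk6, which drives entry into S phase, by 1.24 ± 0.13. Tgfbr1 had the largest rise of the list, 1.49, and the insulin receptor gene Insr rose by 0.94. Mycn moved against Myc, at 1311 and 767 normalized counts in Pich-KO against 1933 and 2328 in Pich-WT, and fell by 1.08 ± 0.23 (adjusted p = 0.016). Map4k3, Hras, Irs2 and Igf1r fell as well, with log2 fold changes of −2.50, −2.37, −1.58 and −0.70. Cbx2, a Polycomb gene, had a log2 fold change of −0.13 and did not pass, and neither did Nras or Ccnd1.

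The same question was put to all genes by the number of seed matches in the 3′UTR, as a description of these libraries. Among genes with a mean of at least 100, the median log2 fold change was 0.023 for 9006 genes without a match, −0.016 for 947 genes with 1, 0.076 for 112 with 2 and 0.19 for 19 with 3 or more. The last group spread from −0.57 to 0.45 between its quartiles, with 3 genes higher and 4 lower, which is 15.8% and 21.1% of it. Without a match, 20.9% were higher and 23.0% lower. The class of 3 or more includes Lin28b, Hmga2 and Igf2bp1 themselves, and its 3′UTRs are long, with a median of 4899 bases against 1077 without a match. Within the 25% of genes with the longest 3′UTRs the medians were 0.012 for 1969 genes without a match and 0.080 for 555 with 1 or more. Nr6a1, with 8 matches the gene that had most, was at 54.5 and 37.5 normalized counts in Pich-KO against 27.4 and 30 in Pich-WT and did not pass (log2 fold change 0.64 ± 0.37).

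**Figure D3:**
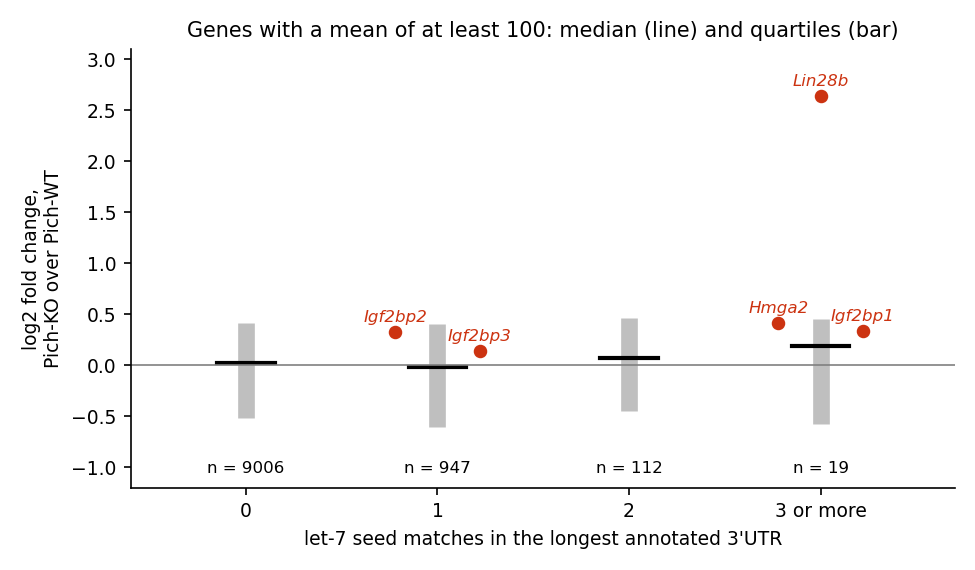
log2 fold change (y axis) of genes with a mean of at least 100 by the number of let-7 seed matches in the longest annotated 3′UTR (x axis); black lines are medians, grey bars run from the lower to the upper quartile, and red points are the members. The medians lie between −0.016 and 0.19, and Lin28b at 2.64 stands above the quartiles of its class while Hmga2 and Igf2bp1 lie within them.

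RNAs that IGF2BP proteins bind and the proteins they act with were also split. Of 15 genes, 4 rose, 4 fell and 7 did not pass in limma, with a median log2 fold change of 0.022. Igf2, the fetal growth factor gene for which the family is named, was low, at 18.5 and 14.8 normalized counts in Pich-KO against 154 and 71 in Pich-WT, and fell by 2.59 ± 0.43 on the log2 scale (adjusted p = 0.0049). H19, the imprinted RNA gene beside it, fell from 1041 and 649 to 218 and 240 normalized counts, by 1.84 ± 0.23 on the log2 scale. Actb fell by 0.41. The protein partners Dhx9, Syncrip, Hnrnpu and Pabpc1 rose, and Dhx9, an RNA helicase gene, showed the largest rise, from 1001 and 1197 normalized counts in Pich-WT to 3677 and 4062 in Pich-KO (log2 fold change 1.82 ± 0.13, adjusted p = 9.5e-05). Ybx1 and Elavl1 did not pass.

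Among the chromatin proteins of the HMG families, Hmga1, the paralog of Hmga2, rose. It was at 14211 and 15668 normalized counts in Pich-KO against 7885 and 7624 in Pich-WT, with a log2 fold change of 0.94 ± 0.08 and an adjusted p of 2.0e-04 in limma. Its near copy Hmga1b had a log2 fold change of 0.95, but reads of both genes can be exchanged between them, so that this value is uncertain. The other 7 of the 9 tested genes, of the Hmgb and Hmgn families, did not pass. No gene of the list was called lower by limma or edgeR, and at an unadjusted p under 0.05 limma had 1 lower, Hmgb3, with a log2 fold change of −0.29. At that threshold Hmgb1 and Hmgb2 were higher beside Hmga1 and Hmga1b, with log2 fold changes of 0.31 and 0.32. The median log2 fold change of the list was 0.20.

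A list of genes drawn up for the fetal state of stem cells, several of them imprinted, held none that was called higher as Lin28b was. Whether the list measures fetal against adult identity was not tested. Of 9 genes, 0 rose, 5 fell and 4 did not pass in limma, with a median log2 fold change of −0.97, and neither limma at an unadjusted p under 0.05 nor edgeR called a member of the list higher. Sox17, the transcription factor gene of fetal hematopoietic stem cells that endothelial cells also express, was at 8.73 and 9.09 normalized counts in Pich-KO against 594 and 330 in Pich-WT, and fell by 5.49 ± 0.35 (adjusted p = 7.2e-05). The imprinted genes Mest, Cdkn1c and Grb10 also fell, with log2 fold changes of −5.12, −3.08 and −0.97. Plagl1, the transcription factor gene of the imprinted network, fell as well, from 349 and 269 normalized counts in Pich-WT to 45.8 and 71.6 in Pich-KO. Ezh2, the Polycomb methyltransferase gene, was at 1771 and 2019 against 1671 and 1658 normalized counts, and neither it nor Dlk1, Peg3 or Bcl11a passed.

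**Figure D4:**
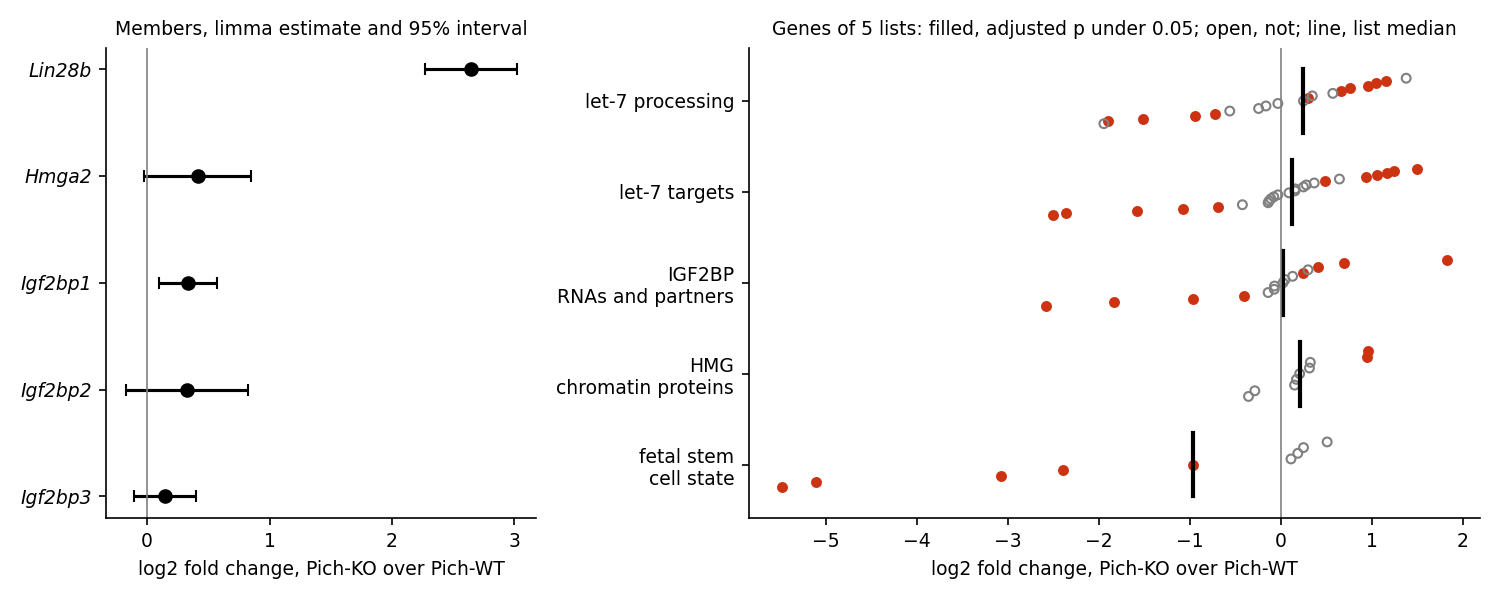
log2 fold change of Pich-KO over Pich-WT (x axes) for the 5 members, with 95% intervals from limma (left), and for the genes of 5 lists (right), filled where the adjusted p was under 0.05 and open otherwise, with a line at each list's median. Lin28b at 2.64 lies apart from the other members at 0.14 to 0.41, and the filled points of 3 lists lie on both sides of 0, those of the HMG list only above it and those of the fetal stem cell state list only below it.

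The cell type markers that moved with the groups are set beside these results. Endothelial markers fell, with log2 fold changes of −4.02 for Kdr to −5.39 for Lyve1, beside −5.49 for Sox17 and −5.12 for Mest. Macrophage markers fell, with log2 fold changes of −1.33 for Csf1r to −7.22 for Marco, and their defining genes were not at 0 in Pich-KO, with C1qa at 73.1 and 68.2 normalized counts against 3625 and 3540 in Pich-WT, although Vsig4 was at 2.18 and 0 against 55.5 and 43. Erythroid markers fell, from −0.73 for Klf1 to −3.17 for Hbb-bs on the log2 scale. Hepatoblast markers fell for 6 of 10 genes, by up to 2.22 for Trf, with sums of 2912 to 3335 against 4721 to 5307 normalized counts. Megakaryocyte markers fell for 3 of 5, by up to 3.12 for Pf4, with sums of 965 to 991 against 2853 to 4109. Of the list of 5 lineage antigens of the sort, 2 were called lower and 0 had a positive log2 fold change. Its sums were 660 and 676 normalized counts in Pich-KO against 2640 and 2168 in Pich-WT, and Cd4 fell by 2.50.
Within the stem and progenitor list of 12 genes, 1 rose and 4 fell. The 1 was Ly6a, at 3586 and 2978 normalized counts in Pich-KO against 901 and 1061 in Pich-WT. The 4 were Slamf1, Procr, Mecom and Hlf, genes that mark the stem cell end of the LSK gate, and Procr showed the largest change, from 362 and 460 normalized counts in Pich-WT to 76.3 and 38.6 in Pich-KO. Ptprc, the common leukocyte antigen gene, was at 5075 and 4335 normalized counts against 4464 and 4020 and did not pass.
Of the neutrophil and monocyte progenitor list, Mpo rose with Lin28b, at 54647 and 90492 normalized counts in Pich-KO against 10351 and 12533 in Pich-WT (log2 fold change 2.63). Prtn3 rose by 2.73 and Ctsg by 2.65, and all 3 are granule protein genes of early neutrophil and monocyte progenitors. In the lymphoid progenitor list 1 of 5 genes was called higher, Rag1 by 1.62. The sums of that list overlapped, at 660 and 327 normalized counts in Pich-KO against 356 and 353 in Pich-WT. In the mesenchymal list 1 of 6 genes was called higher, Col1a1 by 1.30. The part of these shifts in the values of Lin28b and the other members was not tested.

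**Figure D5:**
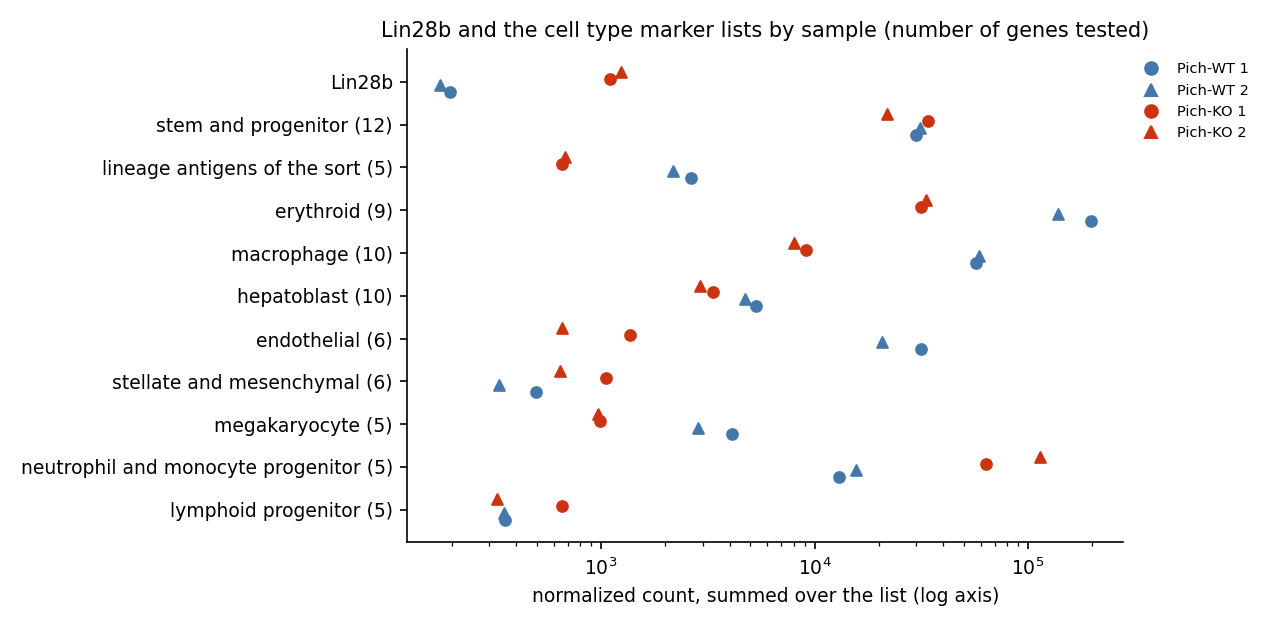
Normalized counts of Lin28b and summed normalized counts of 10 cell type marker lists (x axis, log scale; the number of genes tested is in brackets) in Pich-WT (blue) and Pich-KO (red), with a circle for sample 1 and a triangle for sample 2. Lin28b and the neutrophil and monocyte progenitor list lie to the right in Pich-KO, and the macrophage, endothelial and erythroid lists lie to the left.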

How the data were processed

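RNA of fetal liver LSK cells was extracted with Trizol and made into libraries with the Illumina TruSeq RNA kit, per the labels. The authors deposited 1 table, whose sample values are a signal: reads counted on genes divided by 1 size factor per sample. The submitters' processing notes name Bowtie 0.12.2 and the builds mm8 and mm9, while 97.8% of the 39163 genes found in GENCODE M21 (GRCm38) had the same start and end in the table, as had all 5 members. The counter and its strand setting are not given in the sources used here. The table also holds group means, log2 fold changes and p-values of the authors, which were not used, and 0 columns of sample values were left without a sample. Multiplied by its factor, every value gave a whole number of reads (100% within a tolerance of 0.001).

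Genes with a mean of at least 1 were tested with limma 3.58.1 (R 4.3.3) on log2(value + 1) with the prior variance following the mean and Benjamini-Hochberg adjustment over all of them. Fold changes are on the log2(value + 1) scale, which understates those of low genes. edgeR 4.0.16 and DESeq2 1.42.0 on the recovered reads were alternatives, with a pseudocount of 0.1, other filters, no variance trend, a replicate block and leaving out each sample. edgeR with TMM scaling called 3097 genes higher and 3436 lower of 16608, against 2459 and 3113 of 32428 in limma. The 3′UTRs were taken from GENCODE M21 and the microRNAs from RefSeq (GRCm38.p6), matched by name. The members and lists were chosen with earlier results of these data known. Genes named in the text are the members, in each list the called genes of highest and lowest fold change, up to 5 further genes of the let-7, IGF2BP and fetal lists by size of change, a set chosen by name (Lin28a, Dicer1, Igf2, H19, Hmga1, Myc, Mycn, Arid3a, Cdk6, Plagl1, Sox17, Ezh2 and Cbx2) and the 3 genes most like each member. Overlapping and neighbouring genes were named by position. Tut7, Dis3l2, Dgcr8, Drosha, Insr, Igf1r, Nras, Ccnd1, Hnrnpu, Ybx1, Elavl1, Dlk1, Peg3, Bcl11a, Kit, Ptprc, Slamf1, Mecom, Hlf, Ctsg, C1qa and Nr6a1 were named after their values were seen. List names that the table does not hold were not analysed here, and the values of a few further genes are not reported here.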

Additional observations from a re-analysis of the deposited data

How the results depend on the processing

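All 5 log2 fold changes kept their direction under 12 alternatives each, except that of Igf2bp2, which was -0.040 without Pich-KO sample 1. Hmga2, Igf2bp2 and Igf2bp3 were called under none of the 12. Igf2bp1 was called at 0.33 with at least 10 reads in every sample, at 0.36 in edgeR with TMM scaling and at 0.37 with upper-quartile scaling, so that 2 members were higher in each of these fits. With the replicate block below, that made 4 of the 8 alternatives that keep every sample. Without the variance trend the log2 fold change of Lin28b was 2.64 and did not pass, with 0 members and 0 genes called higher and 0 lower by limma. Leaving out 1 sample leaves a lone sample that is assumed to vary like the other group. It gave 2.55 to 2.74 for Lin28b, -0.040 to 0.69 for Igf2bp2, 0 to 1 members higher, 0 to 548 genes higher and 0 to 1193 lower. The counts of 0 came without Pich-KO sample 2, Pich-WT sample 1 or Pich-WT sample 2, where 2638 to 3521 genes were higher at an unadjusted p under 0.05. Lists then ran, higher and lower, from 0 to 2 and 0 to 1 (let-7 processing), 0 to 3 and 0 to 0 (let-7 targets), 0 to 2 and 0 to 0 (IGF2BP), 0 to 2 higher (HMG) and 0 to 3 lower (fetal state), with medians of 0.17 to 0.25 (let-7 processing), -0.067 to 0.23 (let-7 targets), -0.0072 to 0.10 (IGF2BP) and 0.21 to 0.32 (HMG). The median of let-7 processing was 0.29 in edgeR. The cause was not tested. Upper-quartile scaling moved the median of all genes by 0.032.

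Same-numbered samples of the groups did not deviate together (correlation 0.013 over 10544 genes). With 2 samples per group this is a single comparison, so it cannot exclude a pairing by replicate number, and the main fit used none. With the replicate number as a block Igf2bp1 was called at 0.33 (adjusted p = 0.030 in limma), 2 members and 4 genes of the HMG list were higher, and 3122 genes were higher and 3874 lower in all.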
